A study of Homo sapiens with 6 samples.

Results

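The HOX genes are the 39 protein-coding genes of the HOXA, HOXB, HOXC and HOXD clusters. They were chosen by gene symbol, HOX followed by a cluster letter from A to D and a number, with antisense RNAs left out. In 4 lists of regions occupied by RNA polymerase II (RNA pol II) in HepG2 cells, 8 of the 39 genes had at least 1 region assigned to them, and 52 of the 271336 listed regions were theirs.

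The lists came from ChIP-seq of untreated HepG2 cells, an established human hepatoma line, with an antibody to RPB1, the largest subunit of RNA pol II, or to RPB1 phosphorylated on serine 2 of its C-terminal repeats (phospho-Ser2 RPB1), the form found on elongating polymerase. The SHP-1 WT (WT) cells were CRISPR controls. The SHP-1 KO (KO) cells carried a CRISPR knockout of SHP-1 (gene PTPN6), a protein-tyrosine phosphatase. The study made its knockout lines as single-cell clones, and which clone was used here is not given in the sources used here, so knockout and clone cannot be told apart. There was 1 library for each antibody and cell type, so the values below have no replicate check and no test.

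HOX genes encode homeodomain transcription factors that give positional identity along the body axis. The genes of a cluster stand in the order in which they are used along that axis, and paralog groups, numbered from 1 at the 3′ end to 13 at the 5′ end, join the corresponding genes of the 4 clusters. In cells that do not use them the clusters are a classic target of the Polycomb repressive complexes, and several noncoding RNAs are read from within them.

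Nearly all polymerase regions of the HOX clusters in HepG2 cells lay in HOXA and HOXD, toward the 3′ ends of both clusters. HOXB held no region in WT cells, and HOXC held 1. Inside HOXA and HOXD, the highest RPB1 levels of WT cells stood at the starts of HOXA4 and HOXD1, in regions that the gene assignment gave to the noncoding genes HOXA-AS3 and MIR7704. The highest phospho-Ser2 RPB1 levels stood elsewhere, over the 3′ part of HOXA3 and the 3′ end of HOXD3. In KO cells RPB1 was lower at both starts, as it was at most genes with an RPB1 region in both cell types.

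The sequences under these RPB1 regions are shown with those of HOX starts without a region. All are from hg38 and read 5′ to 3′ on the strand of the HOX gene, and the capitals mark CCAAT or its reverse complement ATTGG, the letters of the CCAAT box, and TATAAA or its reverse complement TTTATA.
HOXA4, 201 bases centred on the RPB1 summit of WT cells, chr7:27130934-27131134, minus strand: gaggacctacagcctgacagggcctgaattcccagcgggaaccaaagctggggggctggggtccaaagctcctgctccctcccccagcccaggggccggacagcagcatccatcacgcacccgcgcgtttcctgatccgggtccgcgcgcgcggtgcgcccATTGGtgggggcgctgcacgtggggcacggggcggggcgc
HOXD1, the 150 bases before the start, chr2:176188518-176188667, plus strand: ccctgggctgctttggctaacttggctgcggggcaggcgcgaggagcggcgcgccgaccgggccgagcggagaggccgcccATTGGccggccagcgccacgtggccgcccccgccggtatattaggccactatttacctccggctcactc
HOXC cluster, 201 bases centred on the only RPB1 summit, chr12:54017956-54018156, plus strand: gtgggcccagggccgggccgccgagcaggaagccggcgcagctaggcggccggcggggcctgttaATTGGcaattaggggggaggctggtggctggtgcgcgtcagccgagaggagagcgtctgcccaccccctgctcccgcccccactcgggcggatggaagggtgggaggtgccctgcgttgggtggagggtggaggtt
HOXA9, the 150 bases before the start, no region, chr7:27165538-27165687, minus strand: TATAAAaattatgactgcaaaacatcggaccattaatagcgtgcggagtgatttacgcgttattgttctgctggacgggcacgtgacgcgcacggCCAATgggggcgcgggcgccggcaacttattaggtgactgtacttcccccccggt
HOXD10, the 150 bases before the start, no region, chr2:176116628-176116777, plus strand: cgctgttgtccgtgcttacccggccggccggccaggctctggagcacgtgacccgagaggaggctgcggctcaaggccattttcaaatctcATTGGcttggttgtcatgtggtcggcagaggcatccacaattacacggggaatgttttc

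Each of the 5 sequences held CCAAT on 1 strand. Over the 250 bases before the start in the RefSeq promoter table (GRCh38.p14), which had 27 entries for 20 of the 39 HOX genes, 66.7% of the HOX entries and 32.0% of all 35116 entries held CCAAT on either strand. TATAAA, on either strand and with any overlap allowed, was in 18.5% of the HOX entries and 10.7% of all entries. The HOX entries held a median of 19.0 CG dinucleotides against 11.0 for all entries. The HOXC4 and HOXC5 entries were the same window, and HOXA3 had several entries, so these shares are not over separate genes. HOXA4 had 26 and HOXD1 had 31 in 250 bases. The 16 other HOX genes whose entry lay at the main start had no RPB1 region within 1 kb of it and ranged from 4 to 40, and 13 of them held CCAAT, so neither count set the occupied starts apart. A letter match is a description of the window and not a binding site.

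The HOX regions were few for the number of genes. In WT cells, 6 of 39 HOX genes had an RPB1 region (15.4%, 95% Wilson interval 7.25 to 29.7, counting error only), against 57.0% of 20056 RefSeq protein-coding genes. In KO cells, 5 of 39 had one (12.8%, 5.60 to 26.7) against 54.8%. Phospho-Ser2 RPB1 regions were assigned to 4 of 39 HOX genes in WT cells (10.3%, 4.06 to 23.6) against 51.3%, and to 5 of 39 in KO cells (12.8%, 5.60 to 26.7) against 46.7%. In all 4 lists the HOX share lay below that of protein-coding genes at large, with the upper end of each interval below it too.

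Promoter regions were as sparse. By the authors' promoter class, RPB1 regions marked 4 HOX genes in each cell type, against 50.9% of protein-coding genes in WT and 49.5% in KO cells. Phospho-Ser2 RPB1 promoter regions marked 3 HOX genes in each cell type, against 36.9% and 33.1% of protein-coding genes. The shares of HOX regions in the promoter class were 57.1%, 50.0%, 46.2% and 38.5% in RPB1 WT, RPB1 KO, phospho-Ser2 WT and phospho-Ser2 KO, against 44.6%, 47.4%, 23.9% and 25.1% of all regions, with intervals as wide as 32.6% to 78.6% for the first.

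The 4 clusters differed widely in the share of their bases that lay inside a region, whatever gene it was assigned to. HOXA, 107 kb on chromosome 7, had 12.8% of its bases in RPB1 regions in WT cells and 10.0% in KO cells. HOXD, 98.2 kb on chromosome 2, had 6.62% and 3.87%. HOXC, 117 kb on chromosome 12, had 0.399% and 0.299%. HOXB, 200 kb on chromosome 17, had 0% and 0.0999%. Over all protein-coding gene bodies the shares were 2.03% and 1.74%, so HOXA and HOXD lay above the genome and HOXB and HOXC below it in both cell types.

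Phospho-Ser2 RPB1 followed the same order of clusters. HOXA had 11.5% of its bases in regions in WT cells and 7.39% in KO cells, and HOXD had 8.27% and 6.72%. HOXB and HOXC had 0% in both. The shares over protein-coding gene bodies were 3.97% and 3.25%.

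**Figure D1:**
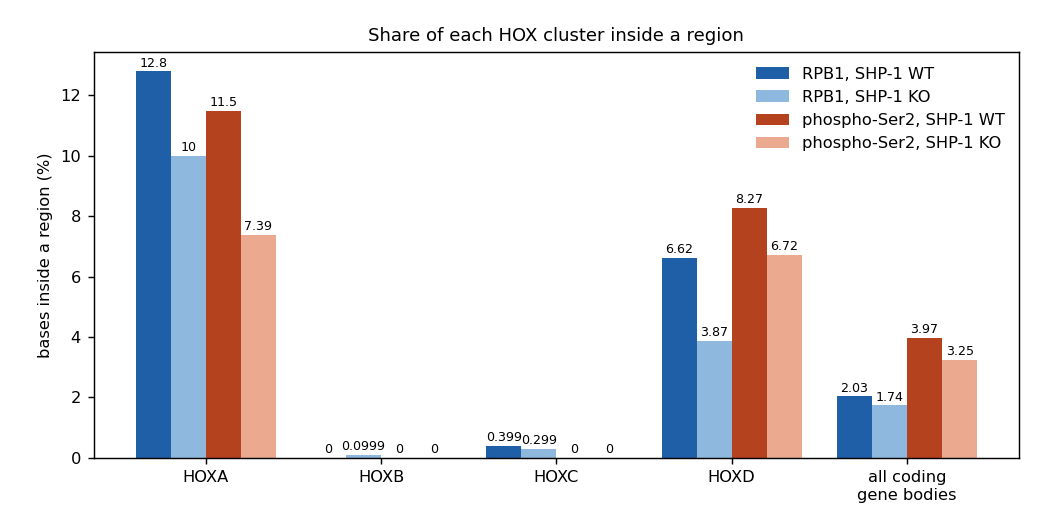
Percent of the bases of each HOX cluster that lay inside a region, for the 4 lists (bars, 1 library each, no error bars), with all protein-coding gene bodies at the right. HOXA and HOXD stood above the gene bodies in every list, HOXB and HOXC near 0.

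Within HOXA the regions stopped short of HOXA9. The stretch from the 3′ end of the cluster to the 3′ end of HOXA9, 69.4 kb, held 17, 18, 19 and 15 regions in RPB1 WT, RPB1 KO, phospho-Ser2 WT and phospho-Ser2 KO. The 37.7 kb from HOXA9 to HOXA13 held 0 in each. In HOXD, the 33.6 kb from the main HOXD3 start to HOXD1 held 7, 4, 12 and 9 regions, and the 64.6 kb from HOXD13 to that start held 0 in each. HOXD4, HOXD8, HOXD9, HOXD10, HOXD11, HOXD12 and HOXD13 were in the empty stretch.

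Across all clusters, none of the 16 genes of paralog groups 9 to 13, the posterior genes, had a region in any list. Of the 8 genes of groups 1 to 3, the anterior genes, 2 had an RPB1 region in WT and 1 in KO cells, and 3 and 4 had a phospho-Ser2 RPB1 region. Of the 15 genes of groups 4 to 8, 4 had an RPB1 region in each cell type and 1 had a phospho-Ser2 RPB1 region in each.

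**Figure D2:**
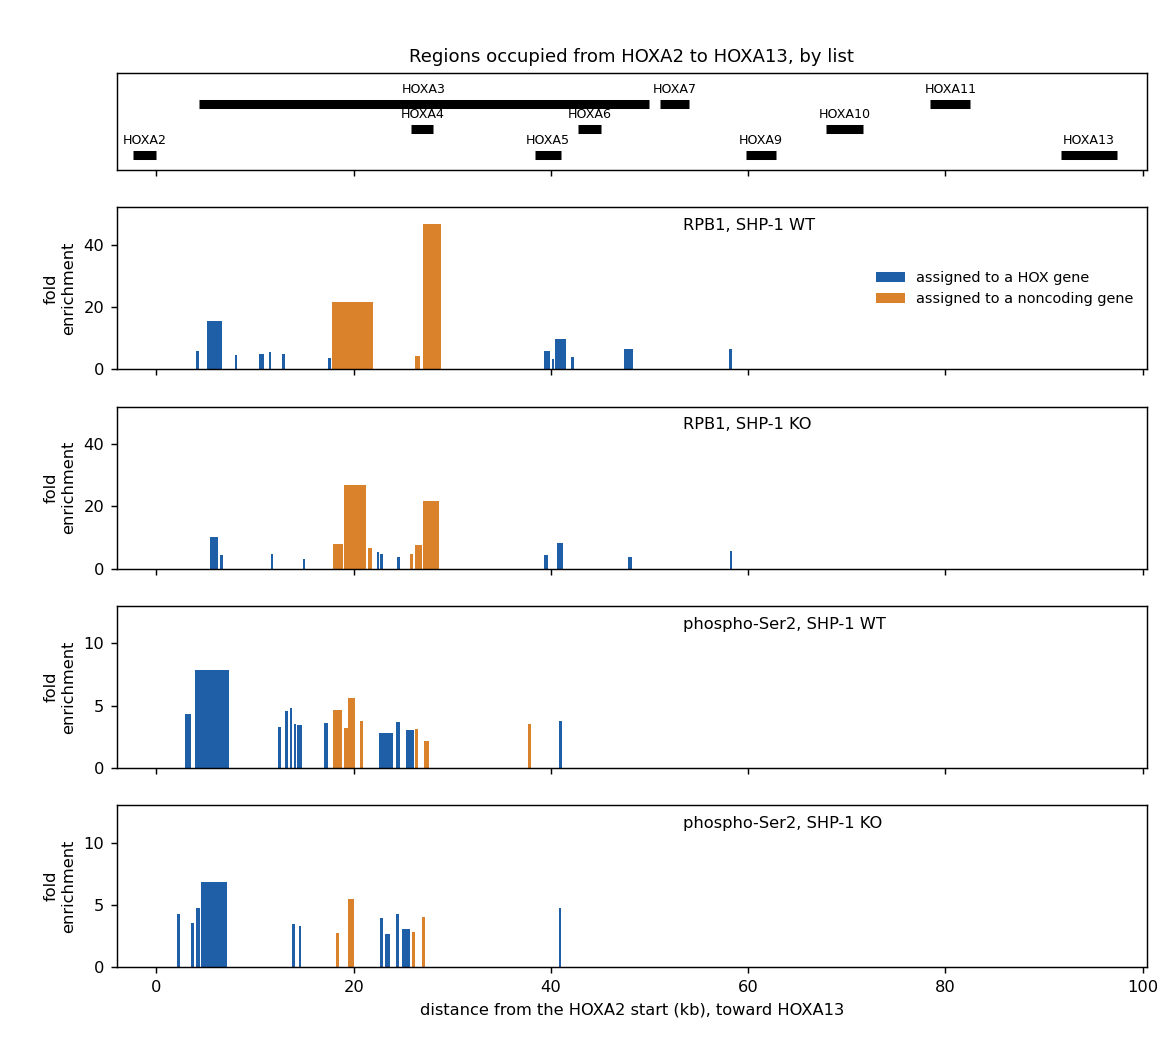
The HOXA cluster from HOXA2 to HOXA13 by distance from the HOXA2 start (kb), with the main transcripts at the top and the 4 lists below. Bars are regions at their width (the narrowest drawn slightly wider, to be visible) and height is the fold enrichment over input. The tallest RPB1 bars stood at HOXA4 and inside HOXA3 in regions assigned to noncoding genes, and none of the lists had a bar from HOXA9 to HOXA13.

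HOXA4, a gene of paralog group 4 with no region assigned to it, had the highest RPB1 level of its cluster at its start in WT cells. The value given is fold enrichment over the input DNA at the region's highest point, its summit. The region chr7:27129693-27131518 (hg38, 1826 bp) had a fold enrichment of 46.6 in WT cells, higher than 95.4% of that list, and 21.6 in KO cells, where the region was 1621 bp. The summits lay 277 and 271 bp upstream of the main HOXA4 start, in an intron of the longest HOXA3 transcript. The region was assigned to HOXA-AS3, whose start it also covers, and reads from HOXA4 and from the antisense RNA on the opposite strand cannot be told apart in ChIP-seq.

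Phospho-Ser2 RPB1 near the same start was below the median of its list in WT cells and above it in KO cells. The strongest region within 1 kb of the HOXA4 start had a fold enrichment of 2.17 in WT and 4.05 in KO cells, with both summits in the HOXA4 intron, 934 and 936 bp downstream of the start. They stood at the 0.849 and 58.6 percentiles of their lists.

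HOXD1, the most 3′ gene of its cluster, had the highest RPB1 level of any HOX locus. The region chr2:176186874-176189928 (3055 bp) had a fold enrichment of 49.9 in WT cells, higher than 96.2% of the list, and the corresponding region of 2741 bp in KO cells had 33.1. The summits lay 28 and 4 bp downstream of the HOXD1 start, in the 5′ UTR. The assignment gave both regions to MIR7704, a microRNA gene inside the first HOXD1 coding exon. The mature microRNA begins 175 bp from the HOXD1 start. MIR7704 was named here after its values were seen. Its mature sequence in RefSeq (chr2:176188843-176188861), with the seed at bases 2 to 8 in capitals, shows what the name stands for.
hsa-miR-7704: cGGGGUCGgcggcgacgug

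Phospho-Ser2 RPB1 at the HOXD1 start was assigned to HOXD1 itself. In WT cells the region was 295 bp wide with a fold enrichment of 5.32 and its summit 37 bp downstream of the start. In KO cells the region was 1854 bp wide with a fold enrichment of 2.77 and its summit 1266 bp upstream. A separate region of 1482 bp lay upstream in WT cells, with a fold enrichment of 3.39 and assigned to HAGLR, a noncoding RNA on the opposite strand. The 2 regions of WT cells thus corresponded to 1 listed region in KO cells, and its summit stood at the upstream side.

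HOXA5 was the one gene with RPB1 and phospho-Ser2 RPB1 regions both at its start and both under its own name. The RPB1 region at the start (chr7:27143049-27144189 in WT cells) had a fold enrichment of 9.80 in WT and 8.21 in KO cells, and the phospho-Ser2 RPB1 region 3.77 and 4.78. The summits of these 4 regions lay 55, 137, 22 and 63 bp downstream of the start, in that order. WT cells had 4 RPB1 regions for HOXA5 and KO cells 2, with weaker regions over its intron and coding exon.

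Taken by position, the starts of HOXA4, HOXA5 and HOXD1 had an RPB1 region within 1 kb in each cell type. The share of 19061 protein-coding genes with such a region was 60.5% in WT and 58.5% in KO cells. Phospho-Ser2 RPB1 lay within 1 kb of 3 HOX starts in each cell type, those of HOXA4, HOXA5 and HOXD1, against 35.6% and 32.3%. This count was added after the data were seen. Among all starts with an RPB1 region in WT cells, HOXD1 stood at the 84.6 percentile, HOXA4 at 81.3 and HOXA5 at 10.1, so HOXA5 was low where the other two were high.

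HOXA3, which acts in the pharyngeal region, had the most regions of any HOX gene, 6 and 7 for RPB1 and 10 and 7 for phospho-Ser2 RPB1 in WT and KO cells. Its main transcript is also by far the longest of its cluster and spans HOXA4, HOXA5 and HOXA6. The strongest RPB1 region assigned to it, chr7:27107854-27109280 (1427 bp), had a fold enrichment of 15.5 in WT and 10.0 in KO cells, with the summit in a HOXA3 coding exon. The strongest phospho-Ser2 RPB1 region covered the same place, at 3512 bp with a fold enrichment of 7.88 in WT and 2626 bp with 6.83 in KO cells. These 2 phospho-Ser2 RPB1 regions were higher than 96.0% and 93.6% of their lists and wider than 97.8% and 96.3%.

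HOXA3 also held the RPB1 regions assigned to HOXA-AS2, an antisense RNA inside it. The strongest had a fold enrichment of 21.5 in WT and 26.7 in KO cells, 4126 and 2206 bp wide, and KO cells had 3 regions where WT cells had 1. Unlike RPB1 at the starts of HOXA4 and HOXD1, it was higher in KO cells, where it was the strongest of the HOXA cluster. Phospho-Ser2 RPB1 at that place was 5.64 and 5.46. RefSeq places alternative HOXA3 starts there too, so the region can be read as either gene's.

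HOXA2 regions were not at HOXA2. The RPB1 region assigned to it in WT cells had a fold enrichment of 5.80 and lay 4155 bp upstream of the HOXA2 start, in the 3′ part of the HOXA3 gene span. No RPB1 region was assigned to HOXA2 in KO cells. Phospho-Ser2 RPB1 regions assigned to it were 1 in WT cells, at 4.32, and 3 in KO cells, the strongest at 4.71. All of them lay 2251 to 4240 bp upstream of the HOXA2 start. The strongest of KO cells overlapped the wide HOXA3 region of WT cells.

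HOXA6 and HOXA7, genes of the trunk, had RPB1 regions and no phospho-Ser2 RPB1 regions. HOXA6 had a fold enrichment of 6.50 in WT and 3.58 in KO cells. The region lay at the start of a noncoding HOXA6 transcript, with the WT summit 2152 bp inside the longest HOXA3 transcript. RefSeq also places an alternative HOXA3 start inside the WT region, at position 27150950, so that region can be read as either gene's. HOXA7 had 6.51 and 5.81, in a region 4195 bp upstream of its start between HOXA7 and HOXA9.

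**Figure D3:**
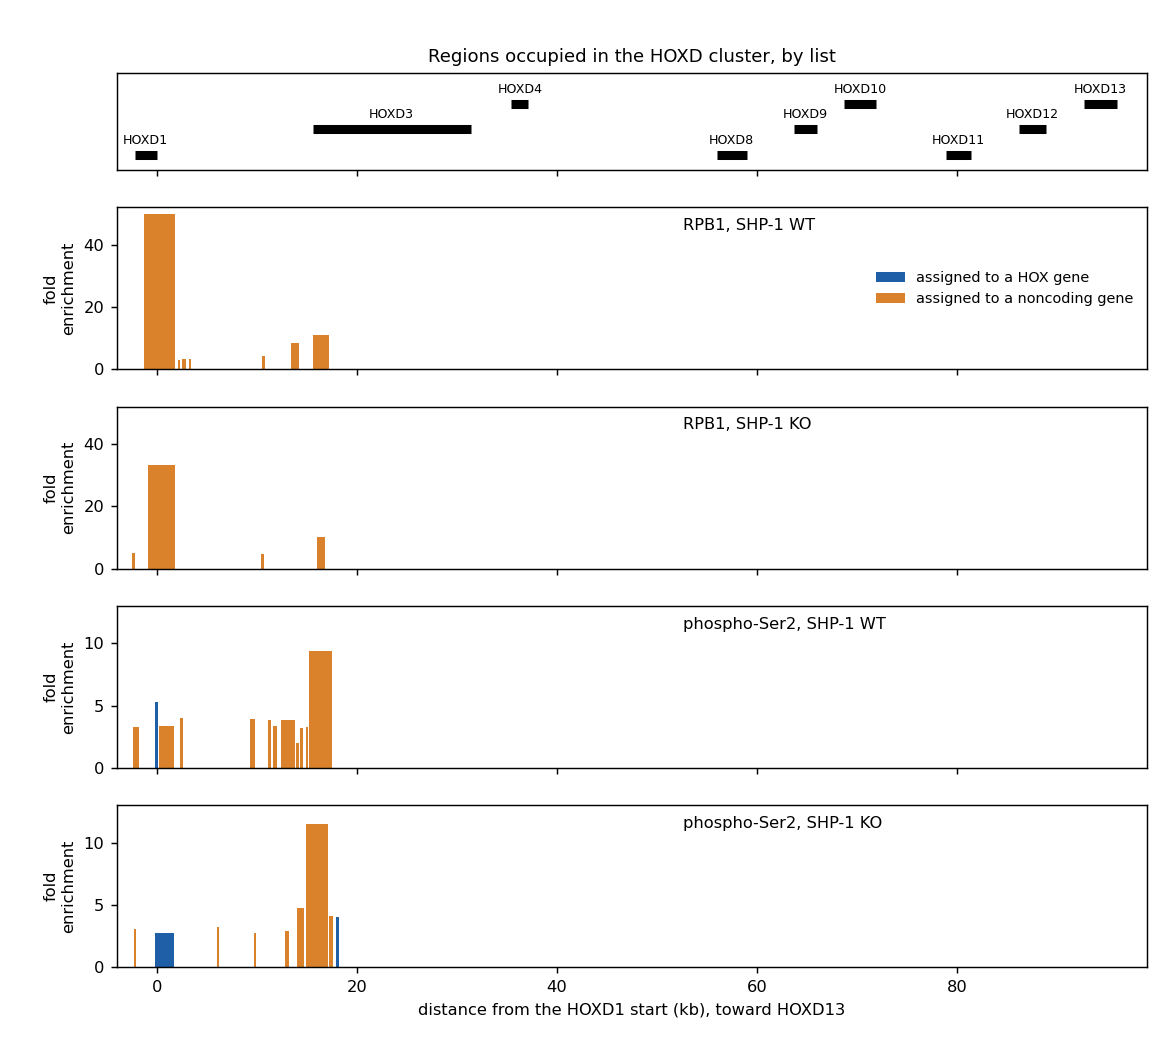
The HOXD cluster by distance from the HOXD1 start (kb), drawn as for HOXA. RPB1 was highest at the HOXD1 start (49.9 and 33.1) and phospho-Ser2 RPB1 at the 3′ end of HOXD3 (9.35 and 11.5), and no summit lay beyond 18.1 kb.

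HOXD3 had no region assigned to it in 3 lists, although the highest phospho-Ser2 RPB1 regions of any cluster covered its 3′ end. These were assigned to HAGLR, which overlaps it on the opposite strand. Their fold enrichment was 9.35 in WT cells (2261 bp, higher than 97.5% of the list) and 11.5 in KO cells (2220 bp, higher than 98.6%), and RPB1 at the same place was 11.0 and 10.2. Only in the phospho-Ser2 RPB1 list of KO cells was a region assigned to HOXD3 itself, of 368 bp in its intron with a fold enrichment of 4.03. For HAGLR, the WT and KO lists gave 12 and 8 regions with phospho-Ser2 RPB1 and 8 and 4 with RPB1.

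HOXC5 stood for the whole of HOXC. Its RPB1 region chr12:54017785-54018252 (468 bp in WT, 350 bp in KO cells) had a fold enrichment of 11.4 and 9.57, and no phospho-Ser2 RPB1 region was listed anywhere in HOXC. The region lay within the gene spans of HOXC4 and HOXC6 and well upstream of the main HOXC5 transcript, at a transcript that GENCODE release 44 files under another gene name. RefSeq gives HOXC4 and HOXC5 a shared upstream start at position 54016888, which lies upstream of the region.

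In HOXB, none of the 10 genes, HOXB1 through HOXB9 and HOXB13, had a region in any list. The single region inside the HOXB interval was an RPB1 region of 200 bp in KO cells with a fold enrichment of 3.70. It was assigned to PRAC1, whose start lies inside the interval too, and lay in a long noncoding RNA between HOXB9 and HOXB13.

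The level of RPB1 assigned to HOX genes was lower in KO cells, as it was for most genes with an RPB1 region in both cell types. All 5 HOX genes with an RPB1 region in both cell types had a lower strongest fold enrichment in KO cells, where 82.1% of 12877 genes did. Of these, 2 genes, HOXA3 (ratio of KO to WT 0.646) and HOXA6 (0.551), were lower by over 1.5 times, against 36.1% of all genes. None was higher by over 1.5 times, against 2.68%. The median ratio of the 5 genes was 0.838 and that of all genes 0.742. Divided by the latter, the HOX median was 1.13, and 0 of the 5 genes were then lower by over 1.5 times. HOXA3 and HOXA6 lay below the median of all genes, at the 32.3 and 16.7 percentiles, and the other 3 above it.

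At the starts taken by position, the ratio of KO to WT for RPB1 was 0.462 at HOXA4, 0.663 at HOXD1 and 0.838 at HOXA5, with a median of 0.663 over these 3 starts against 0.717 for all genes. That median lay below the one of all genes, where the median by assignment lay above it. HOXA4 and HOXD1 were lower by over 1.5 times, as were 39.9% of 11012 genes. HOXA4 stood at the 7.24 percentile of all ratios, near the low end, and HOXD1 and HOXA5 at 39.1 and 70.4.

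Phospho-Ser2 RPB1 differed in both directions. Of the 4 HOX genes with a region in both cell types, HOXA3 (0.868) and HOXD1 (0.520) were lower in KO cells and HOXA2 (1.09) and HOXA5 (1.27) higher, where 59.7% of 10870 genes were lower. HOXD1 was lower by over 1.5 times, against 11.7%, and stood at the 2.99 percentile of all ratios. Its values came from different places, with summits 37 bp downstream of the start in WT and 1266 bp upstream in KO cells. Against the WT region that held the KO summit, assigned to HAGLR, the ratio was 0.817. The HOXA2 values came from different places too, with summits 3230 bp upstream of its start in WT and 4240 bp upstream in KO cells. That KO region lay inside the WT region assigned to HOXA3, which had a fold enrichment of 7.88. No HOX gene was higher by over 1.5 times by assignment, against 5.71%. By position, HOXA4 was higher by over that fold, with a ratio of 1.87, at the 96.9 percentile of 5438 genes. Its WT value of 2.17 stood at the 0.849 percentile of its list, with a −log10 q of 1.76 against a lowest of 1.31. HOXD1 was lower by over that fold by position, as were 14.8% of the same genes. The KO region of HOXD1 reached its start with a summit outside the 1 kb window, so its ratio is not one of like positions. The medians were 0.979 for the 4 HOX genes and 0.936 for all genes, and the HOX median turned above 1 when divided by the latter (1.05), with promoter regions only (1.15) and by position (1.27).

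**Figure D4:**
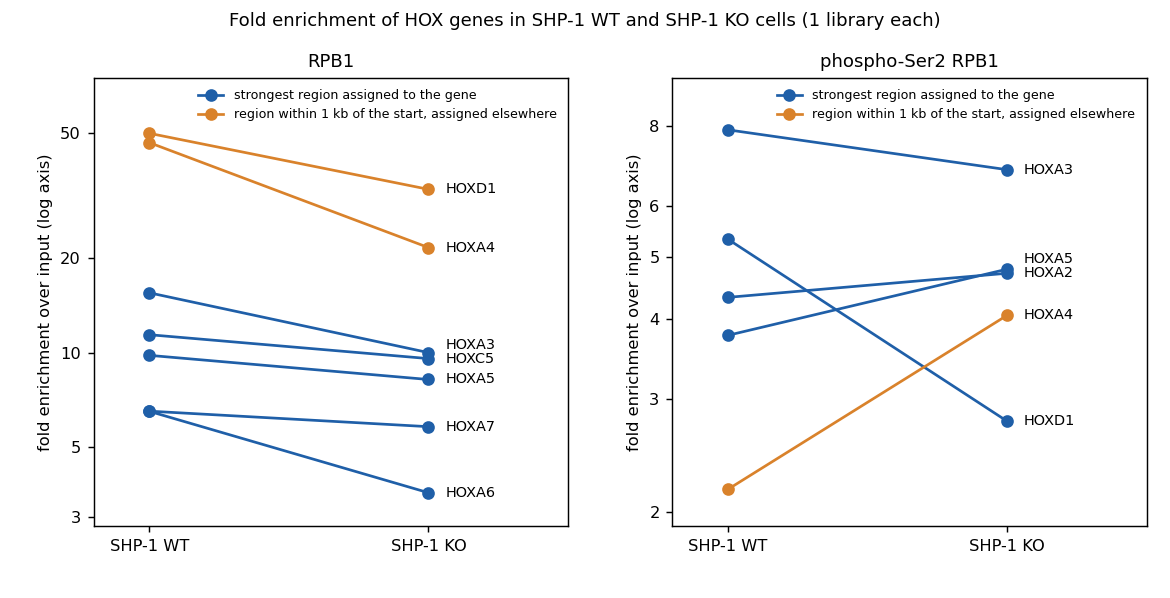
Fold enrichment over input (log axis) in WT and KO cells, 1 library each, for RPB1 (left) and phospho-Ser2 RPB1 (right). Lines join the strongest region assigned to a gene, or, for starts assigned elsewhere, the region within 1 kb of the start. Every RPB1 value was lower in KO cells, and phospho-Ser2 RPB1 values went both ways. The HOXD1 and HOXA2 phospho-Ser2 RPB1 summits lay at different places in WT and KO cells.

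For each antibody, 1 HOX gene was listed in 1 cell type alone, out of 4 to 6 genes compared. HOXA2 was the 1 of 6 genes with an RPB1 region in WT cells that had none in KO cells, against 9.09% of all genes, and 0 of 5 went the other way, against 4.32%. For phospho-Ser2 RPB1, 0 of 4 genes were listed in WT cells alone, against 14.7%, and HOXD3 was the 1 of 5 listed in KO cells alone, against 4.92%.

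Region by region, 7 of 14 HOX RPB1 regions of WT cells overlapped an RPB1 region of KO cells by at least 1 bp, against 61.9% of all regions, and 8 of 12 the other way, against 74.9%. For phospho-Ser2 RPB1 these were 9 of 13 against 52.2% and 10 of 13 against 69.9%. The 7 RPB1 regions of WT cells without a partner had fold enrichments of 3.45 to 5.80, and 4 of them were assigned to HOXA3. Of the HOX phospho-Ser2 RPB1 regions, 4 of 13 overlapped an RPB1 region in WT cells, against 24.2%, and 6 of 13 in KO cells, against 26.1%.

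Most of the noncoding genes counted in the clusters had no region assigned to them. Of 24 fixed for this count, 4 had an RPB1 region in each cell type, HOXA-AS2, HOXA-AS3 and HAGLR among them. These 3 had phospho-Ser2 RPB1 regions in each. The share of noncoding genes at large with a region was not worked out, so whether these counts are low is not known. HOTAIR and HOTTIP, long noncoding RNAs of the posterior ends of HOXC and HOXA, and the microRNA genes MIR10A, MIR10B, MIR196A1, MIR196A2, MIR196B and MIR615 had none.

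Of 17 neighbour genes of the clusters, 11 and 13 had an RPB1 region in WT and KO cells, beside 57.0% and 54.8% of all protein-coding genes. A phospho-Ser2 RPB1 region was assigned to 11 in each, beside 51.3% and 46.7%. PRAC1, one of these genes, starts between HOXB9 and HOXB13 and so inside the HOXB interval. LNPK, counted once, was on the list under its older symbol KIAA1715 too. HIBADH, a valine-catabolism enzyme gene beside HOXA, had RPB1 at 62.3 and 57.9. MTX2, a mitochondrial import gene beside HOXD, had 38.2 and 27.9. EVX1 and EVX2, the homeobox genes next to HOXA13 and HOXD13, had no region in any list.

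The TALE homeodomain cofactors that bind DNA with HOX proteins had an RPB1 region at 5 of 9 genes in each cell type. That count was near the share of protein-coding genes at large, 57.0% in WT and 54.8% in KO cells. A phospho-Ser2 RPB1 region was assigned to 3 of 9 in each, beside 51.3% and 46.7%. MEIS2 (48.2 and 29.0) and PKNOX1 (46.1 and 32.2) had the highest RPB1 values of the list. Of the 6 ParaHox genes, homeobox genes related to HOX, 3 had an RPB1 region in WT and 2 in KO cells. None had a phospho-Ser2 RPB1 region. The same shares of protein-coding genes stand beside these counts. CDX2 had 15.4 and 9.23.

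All 18 genes of the Polycomb repressive complexes had an RPB1 region in both cell types, beside 57.0% (WT) and 54.8% (KO) of protein-coding genes. A phospho-Ser2 RPB1 region was assigned to 14 of 18 in each, beside 51.3% and 46.7%. EZH2, the methyltransferase of Polycomb complex 2, had RPB1 at 46.0 in WT and 63.2 in KO cells. Of 16 trithorax and related genes, which keep HOX genes active, 16 and 15 had an RPB1 region and 16 and 13 a phospho-Ser2 RPB1 region. These counts are to be read beside the same shares of protein-coding genes.

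As a check on the cells, 10 of 11 hepatocyte and hepatoma markers had an RPB1 region in WT and 8 in KO cells. The shares of protein-coding genes were 57.0% and 54.8%. A phospho-Ser2 RPB1 region was assigned to 11 and 10 of these markers, beside 51.3% and 46.7%. FOXA2 had no RPB1 region in either list. APOA1 and APOA2 had RPB1 at 4.02 and 66.3 in WT cells and no RPB1 region assigned to them in KO cells. Regions assigned to other genes were not counted here, so a loss of polymerase at these genes was not shown. Both genes had phospho-Ser2 RPB1 regions in each cell type, with the strongest value higher in KO cells for APOA1 and lower for APOA2. Of 10 markers of other cells, 3, 2, 2 and 2 had a region in RPB1 WT, RPB1 KO, phospho-Ser2 WT and phospho-Ser2 KO. The same shares of protein-coding genes stand beside these counts, in that order. PECAM1 had 17, 11, 22 and 15 regions in that order, with strongest fold enrichments of 7.44, 7.87, 9.75 and 7.67. GFAP had strongest values of 4.01, 4.09, 13.5 and 8.02, so the check was not clean. PTPN6, the targeted gene, had RPB1 at 24.0 in WT and 17.2 in KO cells and phospho-Ser2 RPB1 at 4.03 and 5.24. A guide that disrupts the coding sequence need not remove RNA pol II, so this does not check the knockout. The KO lists were shorter, 41605 against 46045 RPB1 regions and 81012 against 102674 phospho-Ser2 RPB1 regions, and read depth is unknown because the lists hold no counts. The part of depth in any difference above was not tested.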

How the data were processed

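RPB1 and phospho-Ser2 RPB1 ChIP-seq was available as 1 list of regions per antibody and cell type. The 2 input libraries served the authors as background. Per the methods and the submitters' processing notes, the authors used Trimmomatic for trimming, BWA for alignment to hg38 and MACS2 for narrow peaks against input. Tool versions are not given in the sources used here. The deposited lists hold, for each region, a fold enrichment over input at the summit (a linear ratio), −log10 p-values and −log10 q-values, and the gene and class the authors assigned. The lowest −log10 q in the deposited lists was 1.31. Another deposited table holds the authors' own comparison of RPB1 between cell types (log fold changes and p-values by window) and was not used.

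Regions were read with Python 3.11.15 and pandas 2.3.3. Overlaps required at least 1 bp and were checked on simulated intervals. Main starts were those of MANE Select transcripts in GENCODE release 44, of the same build. Genes with a region were compared with RefSeq protein-coding genes, and ratios used genes with a region in both cell types. With 1 library a group no test was run, and fold differences of over 1.5 were counted. Depth is unknown. All 39 genes were accounted for, and values were given for the genes with most regions or highest RPB1 in each cluster and for those listed in 1 cell type only. The members and lists were chosen with earlier results of these data known. Alternatives were a −log10 q of at least 5, position in place of assignment, noncoding genes added, reciprocal overlap of 50%, a fold of 2, promoter regions only and ratios divided by the median of all genes. Results at 1 gene are not reported here.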

Additional observations from a re-analysis of the deposited data

How the results depend on the processing

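No paired analysis was possible because each group held 1 library and no result came from a test. Of 84 alternatives, 48 left the result in the same direction and near its value, 32 moved it further and 4 reversed it. Near means within 1.5 times for counts, levels and ratios and within the 95% Wilson interval for shares. Values are given in the order RPB1 WT, RPB1 KO, phospho-Ser2 WT, phospho-Ser2 KO.

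With a −log10 q of at least 5, HOX regions numbered 8, 5, 7 and 8, bases in HOX regions of RPB1 KO and phospho-Ser2 WT were 2254 and 5679, and 2 HOX genes kept a promoter region in RPB1 KO. By position in a cluster, regions numbered 25, 24, 31 and 24 and covered 20669, 15326, 20564 and 14612 bases. The strongest RPB1 fold enrichment in HOXA was then 46.6 and 26.7, and the strongest phospho-Ser2 RPB1 in HOXD 9.35 and 11.5. With noncoding genes added, regions numbered 26, 23, 32 and 25. With reciprocal overlap of at least 50%, 23.1% and 30.8% of phospho-Ser2 WT and KO regions were shared between cell types, 41.7% of RPB1 KO regions were shared in place of 66.7% (inside the interval), and 0% and 23.1% of phospho-Ser2 regions overlapped RPB1 in WT and KO. Counted within 1 kb of the main start, chosen after seeing the data, 3 HOX genes had a region in phospho-Ser2 KO.

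Taken by assignment, KO to WT ratios divided by the median of all genes had medians of 1.13 (RPB1) and 1.05 (phospho-Ser2 RPB1), both reversed. By assignment, 0 HOX genes were then lower in RPB1 by over 1.5 times. With promoter regions only, 1 was lower in RPB1 and the phospho-Ser2 RPB1 median was 1.15. With regions within 1 kb of the start that median was 1.27, and the RPB1 median over the HOXA4, HOXA5 and HOXD1 starts was 0.663. At a fold of 2, 0 HOX genes were lower by assignment for RPB1 and 0 for phospho-Ser2 RPB1. By position, HOXA4 was lower by over 2 times for RPB1, with a ratio of 0.462. Beyond the shift in all genes, the cause of these changes was not tested. With 1 library a group and no counts, counting error cannot be separated from biological spread.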
